A study of Mus musculus with 8 samples.

Results

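Fragments of the transfer RNAs (tRNAs) that carry lysine were measured in islet macrophages (iMACs) of wild-type and db/db mice. They are the entries that the deposited table names tRNA-Lys-TTT or tRNA-Lys-CTT. These 29 entries, 16 for Lys-TTT and 13 for Lys-CTT, held 23 distinct sequences of the 144 in the table, because 6 sequences stood under both names. The lysine tRNAs were chosen by earlier results of the same 8 libraries, among them the genotype differences of their summed fragments. Values that compare the genotypes, also where fragments were fitted and called at a threshold, are therefore a description and are not used as a test. The split of the fragments between the ends of the tRNA was compared within libraries and tested.

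The iMACs had been sorted from pancreatic islets as CD45+, F4/80+, CD11b+ and CD11c+ cells. The donors were male mice, 8 weeks old. The db/db mice (BKS.Cg-Dock7m+/+LeprdbJ) carry a leptin receptor mutation, overeat and become obese and hyperglycemic, and the controls were wild type on the related background BKS.Cg-Dock7m+/+. Each genotype had 4 libraries, and each library came from a preparation in which islets of several mice were pooled. The sort could not be checked against marker genes, since the table holds tRNA fragments only.

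A tRNA folds into an acceptor stem, which joins both ends of the molecule, a D-arm, an anticodon arm and a T-arm. Its mature 3' end is the CCA tail to which the amino acid is attached. Under stress, ribonucleases such as angiogenin cut tRNAs in the anticodon loop into a 5' and a 3' piece, and shorter fragments (tRFs) arise from cuts nearer the ends. The anticodons written here as TTT and CTT read the lysine codons AAA and AAG. RefSeq lists 2 Lys-TTT genes, n-TKttt23 and n-TKttt22, on chromosome 13 at 21907940 to 21908012 and at 21971788 to 21971860 of GRCm38.p6. It lists 24 Lys-CTT genes on 12 chromosomes, and placing the Lys-CTT fragments at single genes was not tried.

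The 23 sequences, each written 5' to 3' in DNA letters, are shown because their overlap decides what can be told apart. In the first 3 groups the capital marks position 7, counted from the mature 5' end, where Lys-TTT and Lys-CTT differ (A7C, the Lys-TTT base first). The 5' fragments of Lys-TTT were:
Lys-TTT 5' 19 nt: gcccggAtagctcagtcgg
Lys-TTT 5' 24 nt: gcccggAtagctcagtcggtagag
Lys-TTT 5' 25 nt: gcccggAtagctcagtcggtagagc
The 5' fragments of Lys-CTT followed the same sequence apart from that base and ran further, and a second capital marks position 29, where the longest 2 differ (A29G, the 30-nt base first):
Lys-CTT 5' 25 nt: gcccggCtagctcagtcggtagagc
Lys-CTT 5' 26 nt: gcccggCtagctcagtcggtagagca
Lys-CTT 5' 28 nt: gcccggCtagctcagtcggtagagcatg
Lys-CTT 5' 29 nt: gcccggCtagctcagtcggtagagcatgG
Lys-CTT 5' 30 nt: gcccggCtagctcagtcggtagagcatgAg
The internal fragments of Lys-TTT, named here by their first and last position, all kept position 7:
Lys-TTT internal 5 to 24: ggAtagctcagtcggtagag
Lys-TTT internal 6 to 23: gAtagctcagtcggtaga
Lys-TTT internal 6 to 24: gAtagctcagtcggtagag
Lys-TTT internal 7 to 22: Atagctcagtcggtag
Lys-TTT internal 7 to 23: Atagctcagtcggtaga
Lys-TTT internal 7 to 24: Atagctcagtcggtagag
Lys-TTT internal 7 to 26: Atagctcagtcggtagagca
The fragments listed under both names began past position 7, and have no capital:
shared internal 8 to 23: tagctcagtcggtaga
shared internal 8 to 24: tagctcagtcggtagag
shared internal 9 to 26: agctcagtcggtagagca
shared internal 10 to 25: gctcagtcggtagagc
shared internal 10 to 26: gctcagtcggtagagca
shared internal 11 to 26: ctcagtcggtagagca
The 3' fragments of Lys-CTT ended in the CCA tail, in capitals:
Lys-CTT 3' 17 nt: ccccacgttgggcgCCA
Lys-CTT 3' 8 nt: ccgcgCCA

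Because the isoacceptors differ only at position 7 over the stretch that the internal fragments cover, an internal fragment that starts at position 8 or later cannot be assigned to either. The 6 shared fragments may come from Lys-CTT, from Lys-TTT or from both. Of the internal fragments that keep position 7, 7 were listed for Lys-TTT and 0 for Lys-CTT. No listed 5' or internal lysine fragment reached the anticodon. The 30-nt Lys-CTT fragment came nearest to it. Of the 23 sequences, 7 also occurred in a GENCODE M21 transcript, namely the 6 shared internal fragments, in 1 or 2 genes each, and the 8-nt fragment, in 778 genes. That 8-nt sequence also differs from the last 8 bases of the 17-nt fragment at 2 bases.

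**Figure D1:**
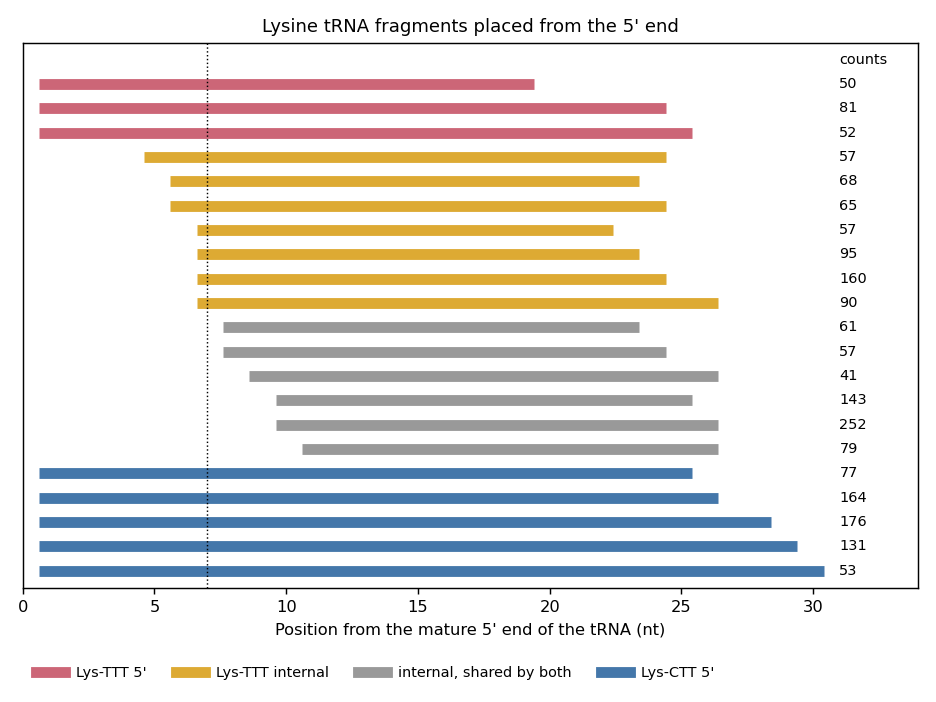
Bars show the 21 lysine fragments placed from the mature 5' end, in nucleotides (nt), with the total count over 8 libraries at the right, and the dotted line marks position 7. All 13 internal fragments lie between positions 5 and 26, and those that start after position 7 are shared by both isoacceptors.

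Lysine fragments held 2220 of the 18250 listed counts, or 12.2%. Listed counts per library ranged from 1477 to 4567. These totals cover the listed fragments only and are not the sequencing depth. A count is a molecule, since the library kit tags each molecule before amplification. The counts per lysine fragment were small, from 41 to 252 over all libraries, and many single values were below 10. In 3 libraries, namely db/db replicate 1 with wild-type replicates 3 and 4, the 5' fragments of 3 other tRNAs (Ser-GCT, Leu-TAG and Cys-GCA) held 27.1% to 37.6% of the listed counts, against 1.56% to 2.81% in the other 5. These 3 libraries stand apart in their make-up, so values that rest on them are also given without them.

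The lysine fragments came mainly from the 5' side of the molecule. Internal fragments of Lys-TTT held 26.7% of the lysine counts and the shared internal ones 28.5%. The 5' fragments of Lys-CTT held 27.1% and those of Lys-TTT 8.24%, and the 3' fragments of Lys-CTT held 9.50%. No 3' fragment of Lys-TTT was listed, where the lowest total of any listed fragment was 23 counts.

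The internal fragments formed a ladder across the D-arm, which follows the acceptor stem. They were 16 to 20 nt long, began at any position from 5 to 11 and ended at any position from 22 to 26. Starts were most frequent at position 7, with 402 counts, and position 10, with 395 counts. Ends were most frequent at position 26, with 462 counts, and position 24, with 339, which together held 65.4% of the internal counts.

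The next comparison asked whether the 2 isoacceptors leave fragments of the same end, as a share of each isoacceptor's own counts within a library and with the shared fragments left out. Among fragments that can be assigned, most Lys-TTT counts were internal and most Lys-CTT counts lay in 5' fragments. The 5' share was 25.9% ± 21.9 for Lys-TTT and 74.7% ± 15.7 for Lys-CTT (SD, n = 8 libraries). The difference was -48.9 percentage points (SD 16.8), and Lys-TTT was the lower in 8 of 8 libraries (exact two-sided sign-flip permutation test, p = 0.0078, the smallest that 8 libraries allow, adjusted p = 0.0312 over the 4 comparisons of region shares with neither side fixed at 0, where an adjusted p under 0.1 counted as passing). Lys-CTT had no assignable internal fragment listed, and Lys-TTT no 3' fragment. The 5' share was thus set against internal fragments alone for Lys-TTT and against 3' fragments alone for Lys-CTT. The p-value therefore covers the listed and assignable fragments only and cannot show whether the isoacceptors are cut differently. The difference was -55.0 points in wild-type and -42.7 points in db/db libraries alone, with the same sign in 4 of 4 libraries of each. With the shared fragments counted for both isoacceptors, the 5' shares were 16.1% and 38.8% and the difference -22.7 points, again in 8 of 8 libraries. Internal fragments then also outweighed 5' fragments for Lys-CTT, at 48.6%. Here the same shared counts enter both sides and Lys-CTT has no internal count of its own. This way of counting favors a lower 5' share for Lys-TTT and is no separate support. Without the 8-nt fragment, which is not specific to lysine tRNA, the 5' share of Lys-CTT was 84.8% and the difference -59.0 points. Without the 3 libraries that stand apart the difference was -39.5 points in 5 of 5 libraries, where the exact permutation test cannot go below p = 0.0625.

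The internal share was 74.1% ± 21.9 for Lys-TTT (SD, n = 8) and 0 for Lys-CTT, which had no assignable internal fragment listed, so this difference was not tested. Counted with the shared fragments, it was 83.9% for Lys-TTT and 48.6% for Lys-CTT, a difference of 35.3 points with the same sign in 8 of 8 libraries. The same shared counts enter both sides, and Lys-CTT has no internal count of its own. This way of counting favors that sign, so no test is given. The 3' share was 0 for Lys-TTT and 25.3% ± 15.7 for Lys-CTT (SD, n = 8), or 15.2% without the 8-nt fragment. With no Lys-TTT 3' fragment listed, the sign of this difference is fixed and it was not tested. The 3 shares of an isoacceptor add up to its whole, so the 5' and internal differences are not independent results.

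**Figure D2:**
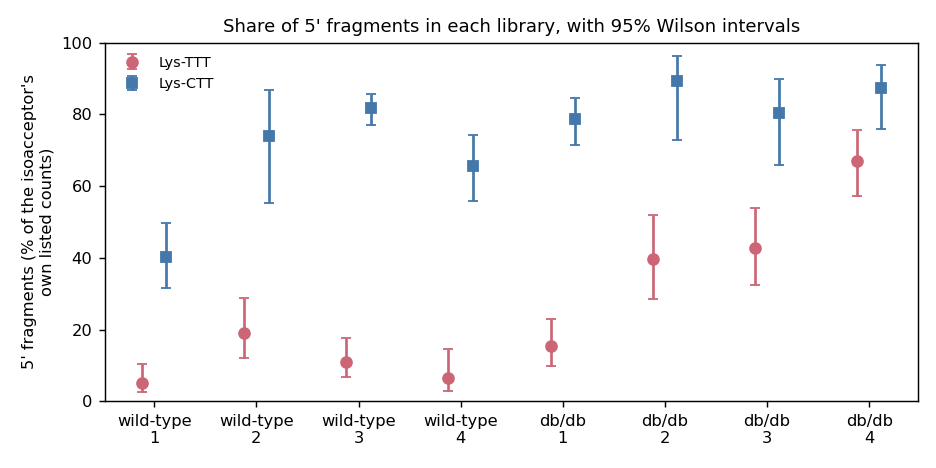
Each point is the percentage of an isoacceptor's own listed counts that lay in 5' fragments in 1 library, and bars are 95% Wilson intervals, which cover counting error only. Lys-CTT lies above Lys-TTT in all 8 libraries, and Lys-TTT ranges from 5.22% to 19.05% in wild-type and from 15.4% to 67.0% in db/db libraries.

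On average over the 8 libraries, lysine tRNAs were richer in internal and poorer in 5' fragments than all other tRNAs pooled. That pool includes the 5' fragments of Ser-GCT, Leu-TAG and Cys-GCA, which held 27.1% to 37.6% of the listed counts in 3 libraries. The 5' share was 35.6% ± 14.9 for lysine and 45.5% ± 13.5 for all other tRNAs together (SD, n = 8), lower for lysine in 7 of 8 libraries, with a mean difference of -9.96 points (exact permutation p = 0.0312, adjusted p = 0.0417). The internal share was 56.3% ± 13.4 for lysine and 47.3% ± 12.8 for the others, higher in 7 of 8 libraries by 9.03 points (exact permutation p = 0.0234, adjusted p = 0.0417). The exception in both was db/db replicate 4, where 60.1% of the lysine counts were 5' fragments. Without the 3 libraries that stand apart the differences were -6.69 and 7.09 points with 4 of 5 libraries in the same direction (exact permutation p = 0.25 and 0.188, adjusted p = 0.333 for each), which did not pass. The 3' share was 8.09% ± 5.42 for lysine and 7.17% ± 2.26 for the others, with 4 libraries on each side (exact permutation p = 0.523). Without the 8-nt fragment it was 4.54% for lysine, below the others in 7 of 8 libraries, with a mean difference of -2.63 points (exact permutation p = 0.0156, adjusted p = 0.0208).

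The genotypes were compared to ask which lysine fragments differ between iMACs of db/db and wild-type mice. The 5' fragments of Lys-TTT stood higher in db/db iMACs, whereas the internal fragments and the 3' fragments of Lys-CTT stood lower, and the groups overlapped in each of these sums. Of the 23 fragments, 5 had a higher and 18 a lower mean level in db/db. These sequences are largely nested in one another, so such counts of direction are not counts of independent members. Levels are in CPM, the listed counts scaled to a common library size after TMM, which corrects library totals for their make-up. Fewer cells and less RNA per cell cannot be told apart in such libraries.

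By edgeR, 7 of the 23 lysine fragments had enough counts to be tested, and 0 were called higher and 0 lower, a call needing more than a 2-fold change and an adjusted p under 0.1. With p under 0.05 before adjustment the counts were also 0 and 0. Among all 44 fragments tested, 13.6% were called higher and 0% lower. Those 6 calls rested on the settings, since 0 were called with library totals alone, with a term for library number, without the 8-nt fragment, or without db/db replicate 2, 3 or 4, and 1, 2 and 3 without wild-type replicate 1, 3 and 4. There were 3 higher with DESeq2 size factors and 3 with a minimum count of 20. More were called higher in other settings. These were 9 without the Ser-GCT, Leu-TAG and Cys-GCA 5' fragments, 10 without wild-type replicate 2 and 16 without db/db replicate 1. With no filter on low counts, edgeR called 2 lysine fragments of 23 higher, against 7.64% of all 144 fragments, and DESeq2 called 2 higher, against 9.72%. Both methods called 0 lower there. The 2 were the 24-nt and the 25-nt 5' fragments of Lys-TTT in both cases. Each had 9 counts over the wild-type libraries, against 72 and 43 over those of db/db. As no listed fragment had under 23 counts, both stand in the table only through their db/db counts. Without the 3 libraries that stand apart, 10 lysine fragments were tested, and 1 was called higher and 3 lower, against 31.7% and 11.1% of all 63 tested. Without db/db replicate 1 alone, 1 was called higher and 2 lower of 9, against 30.2% and 9.43%.

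Joined into sums by tRNA and region, 0 of 5 lysine sums were called by edgeR, while before adjustment 1 was higher and 1 lower with p under 0.05. Among all 33 sums tested 3.03% were called higher and 0% lower. DESeq2 called 1 lysine sum higher, that of the Lys-TTT 5' fragments, against 8.7% of all 46 sums. Without the 3 libraries 4 lysine sums were tested, and 1 was called higher and 2 lower, against 25% and 18.8%. Without db/db replicate 1 it was 1 higher and 3 lower of 5, against 20.6% and 26.5%. As the genotype contrast was known when the lysine tRNAs were picked, nothing is read from these counts of called fragments and sums.

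In levels that do not overlap between the genotypes, 1 lysine fragment was higher and 1 lower in db/db, against 9.72% and 1.39% of all 144 fragments. Among the sums it was 0 of 5 in each direction, against 6.52% and 2.17% of all 46 sums. The lysine fragments tested had a median log2 fold change of -0.49, and all fragments tested one of 0.06. Over the sums it was -0.82 and -0.30. With no filter on low counts it was -0.45 for the 23 lysine fragments and -0.11 for all 144.

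The 24-nt and 25-nt 5' fragments of Lys-TTT had 3 counts or fewer in every wild-type library and reached 33 and 23 in db/db. The 24-nt fragment had 1, 3, 3 and 2 counts in wild-type replicates 1 to 4 and 5, 12, 22 and 33 in db/db replicates 1 to 4. Every db/db library exceeded every wild-type library, also in CPM. Its level was 975 ± 561 CPM for wild-type against 11164 ± 9308 CPM for db/db (SD, n = 4 per genotype), a ratio of 11.5. Its log2 fold change with no filter, 3.51 (SE 0.82), was the highest of the 23, and without the 3 libraries that stand apart it was 3.69.

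The 25-nt fragment, longer by 1 base, had 2, 2, 2 and 3 counts in the wild-type replicates, while the db/db replicates held 3, 10, 7 and 23. Its level was 998 ± 529 and 6582 ± 6418 CPM (SD, n = 4 per genotype), where db/db replicates 2 to 4 exceeded every wild-type library and db/db replicate 1 lay within their range. Its log2 fold change with no filter was 2.72 (SE 0.80). The 19-nt fragment, which ends within the D-loop, did not share this pattern, with 4, 11, 9 and 0 counts across the wild-type libraries against 10, 3, 4 and 9 across those of db/db. Its groups overlapped, with a log2 fold change of 0.52 (SE 0.84) with no filter.

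**Figure D3:**
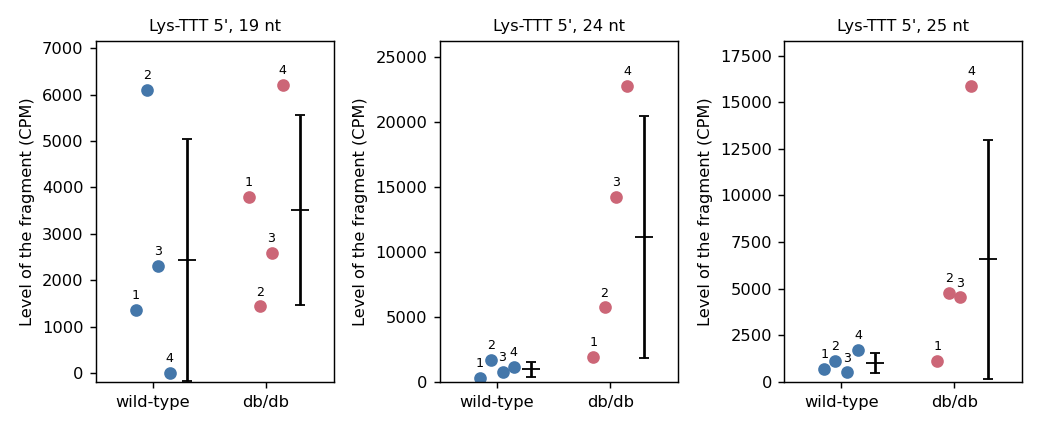
Points are the levels in CPM of the 3 Lys-TTT 5' fragments in each library, numbered by replicate, and bars are the mean ± SD of 4 libraries. All db/db points lie above the wild-type points at 24 nt, 3 of 4 do at 25 nt, and the groups overlap at 19 nt.

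Summed, the Lys-TTT 5' fragments had 7, 16, 14 and 5 counts in the controls, compared with 18, 25, 33 and 65 in db/db. The sum stood at 4849 ± 2663 CPM for wild-type against 17026 ± 11203 CPM for db/db (SD, n = 4 per genotype), a log2 fold change of 1.80 (SE 0.56). Db/db replicates 2 to 4 exceeded every wild-type library, whereas db/db replicate 1, at 6626 CPM, lay below wild-type replicate 2, at 8775 CPM. As a share of the isoacceptor's own counts, the 5' fragments came to 10.5% ± 6.23 for wild-type against 41.2% ± 21.1 for db/db (SD, n = 4 per genotype). Db/db replicate 4 had the highest share, 67.0% (95% Wilson interval 57.2% to 75.6%, 65 of 97 counts), and wild-type replicate 1 the lowest, 5.22% (2.55% to 10.4%, 7 of 134). The 24-nt and 25-nt forms made up 86.2% to 88% of the 5' counts in db/db replicates 2 to 4 and 44.4% in db/db replicate 1. In wild-type libraries they made up 31.2% to 42.9% in replicates 1 to 3 and all of the 5 counts in replicate 4. Both forms were listed only through their db/db counts, and that limit holds for the sum and the share as well. The 19-nt fragment had 24 counts over the wild-type libraries and 26 over those of db/db.

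The sums of other tRNAs whose levels were most like the Lys-TTT 5' sum over the 8 libraries were 5' sums too. That of Val-AAC/Val-CAC had Spearman's rho of 1 and Pearson's r of 0.91. That of the fragments shared by Gly-ACC, Val-AAC and Val-CAC had 0.88 and 0.85, and that of Gly-GCC 0.88 and 0.80. The 8 points share their libraries and scaling factors, so these values describe likeness only.

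The internal fragments of Lys-TTT stood lower in db/db, with a lower mean level for all 7. The 3 most frequent were 7 to 24, 7 to 23 and 7 to 26. Fragment 7 to 24 had 32, 9, 36 and 19 counts across the wild-type libraries, against 31, 11, 10 and 12 across those of db/db. Fragment 7 to 23 had 19, 16, 18 and 13 in the wild-type replicates, while the db/db replicates held 15, 4, 6 and 4. Fragment 7 to 26 had 26, 12, 16 and 7 in the controls, compared with 13, 4, 7 and 5 in db/db. The groups overlapped in all 3, with db/db replicate 1 the highest of its group in counts each time.

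Fragment 7 to 22 was the only lysine fragment whose db/db levels all lay below the wild-type levels. It had 14, 10, 12 and 7 counts across the wild-type libraries, against 5, 5, 4 and 0 across those of db/db. Summed, that was 43 against 14, and no listed fragment had under 23 counts. Fragment 7 to 22 was thus listed only through its wild-type counts. Its level was 4326 ± 1054 CPM for wild-type against 1718 ± 1182 CPM for db/db (SD, n = 4 per genotype), with a log2 fold change of -1.26 (SE 0.67) with no filter. The fragments that begin 1 or 2 bases earlier overlapped between the groups. Fragment 6 to 23 had 7, 11, 14 and 11 counts in the wild-type replicates, while the db/db replicates held 9, 5, 6 and 5. Fragment 6 to 24 had 15, 7, 9 and 6 in the controls, compared with 17, 2, 6 and 3 in db/db. Fragment 5 to 24 had 14, 3, 8 and 8 across the wild-type libraries, against 9, 7, 5 and 3 across those of db/db.

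The Lys-TTT internal sum had 127, 68, 113 and 71 counts in the wild-type replicates, while the db/db replicates held 99, 38, 44 and 32. Its level was 43574 ± 9672 CPM for wild-type against 23302 ± 9089 CPM for db/db (SD, n = 4 per genotype), with a log2 fold change of -0.90 (SE 0.40) that was -1.22 without the 3 libraries that stand apart. Db/db replicates 2 to 4 lay below all wild-type libraries, and db/db replicate 1, at 36443 CPM, lay above wild-type replicate 3. The sums most like it were internal sums of other tRNAs. One is shared by Leu-TAA, Ser-AGA, Ser-CGA, Ser-GCT and Ser-TGA (rho 0.95, r 0.92), one by Phe-GAA and Ser-GGA (0.95, 0.91), and one belongs to Ala-TGC (0.79, 0.83), again over 8 libraries that share their scaling.

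The shared internal fragments stood much as those of Lys-TTT, with a lower mean level in db/db for 5 of 6. The most frequent lysine fragment, 10 to 26, had 48, 35, 55 and 25 counts in the controls, compared with 38, 16, 22 and 13 in db/db. Its level was 15959 ± 2491 and 11317 ± 3514 CPM (SD, n = 4 per genotype), with a log2 fold change of -0.49 (SE 0.44). The groups overlapped, since db/db replicates 1 and 3 lay within the wild-type range. Fragment 10 to 25, shorter by 1 base at its 3' end, had 58, 7, 22 and 6 counts across the wild-type libraries, against 29, 6, 11 and 4 across those of db/db, and rested on wild-type replicate 1 and db/db replicate 1. Fragment 11 to 26 had 19, 11, 19 and 6 counts in the wild-type replicates, while the db/db replicates held 6, 6, 3 and 9.

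The 3 rarer shared fragments overlapped as well. Fragment 8 to 23, the only internal one with a higher mean level in db/db, had 12, 5, 8 and 7 counts in the controls, compared with 9, 8, 8 and 4 in db/db. Fragment 8 to 24 had 14, 6, 19 and 1 across the wild-type libraries, against 4, 7, 4 and 2 across those of db/db. Fragment 9 to 26 had 9, 9, 5 and 0 in the wild-type replicates, while the db/db replicates held 10, 2, 2 and 4. Over the db/db libraries, fragments 8 to 24 and 9 to 26 had 17 and 18 counts, below the lowest listed total of 23. These fragments were thus listed only through their wild-type counts. The sum of the 6 was 44429 ± 16479 CPM for wild-type against 25139 ± 7365 CPM for db/db (SD, n = 4 per genotype), with a log2 fold change of -0.82 (SE 0.41) that was -1.26 without the 3 libraries that stand apart. Db/db replicate 1, at 35339 CPM, again lay within the wild-type range and the other 3 db/db libraries below it. With no filter the log2 fold change was negative for 12 of the 13 internal fragments, with a median of -0.45 and a range from -1.26 to 0.25. The median over all 144 fragments was -0.11.

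**Figure D4:**
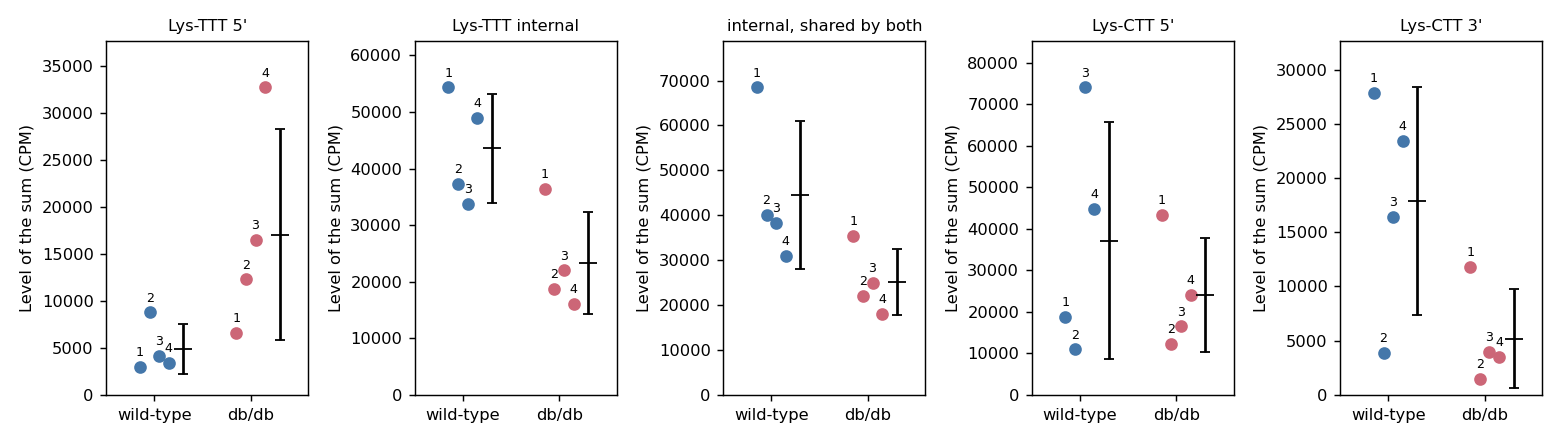
Points are the levels in CPM of the 5 lysine sums in each library, numbered by replicate, and bars are the mean ± SD of 4 libraries. Lys-TTT 5' is higher in db/db replicates 2 to 4 than in any wild-type library, the internal sums are lower there, and the Lys-CTT 5' groups overlap widely.

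The 5' fragments of Lys-CTT did not separate the genotypes and were highest in the 3 libraries that stand apart. Their sum had 44, 20, 248 and 65 counts in the controls, compared with 118, 25, 33 and 48 in db/db. It stood at 43437 to 74040 CPM in those 3 libraries and at 10969 to 24144 CPM in the other 5. The log2 fold change between the genotypes was -0.62 (SE 0.66) over all libraries and 0.27 without the 3. Of the listed counts it held 3.24% to 5.43% in the 3 libraries and 1.27% to 2.81% in the others.

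The lengths of the Lys-CTT 5' fragments did not vary alike. The 28-nt fragment, the most frequent, had 5, 4, 101 and 12 counts across the wild-type libraries, against 34, 4, 5 and 11 across those of db/db. The 26-nt fragment had 14, 3, 64 and 26 in the wild-type replicates, while the db/db replicates held 32, 7, 6 and 12. The 29-nt fragment had 1, 4, 61 and 14 in the controls, compared with 32, 5, 5 and 9 in db/db. In CPM the 26-nt and 29-nt fragments were higher in each of the 3 libraries than in any of the other 5, at 12130 to 16407 against 1662 to 8286 CPM and at 7915 to 15638 against 338 to 6214 CPM. The 28-nt fragment overlapped at its lower end.

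The shortest and the longest form went another way. The 25-nt fragment had 20, 3, 17 and 11 counts across the wild-type libraries, against 9, 4, 7 and 6 across those of db/db, and its levels in the 3 libraries lay within the range of the others. The 30-nt fragment had 4, 6, 5 and 2 counts in the wild-type replicates, while the db/db replicates held 11, 5, 10 and 10. Its level was 1772 ± 1039 CPM for wild-type against 4984 ± 2106 CPM for db/db (SD, n = 4 per genotype), where db/db replicates 1, 3 and 4 exceeded every wild-type library, and the log2 fold change was 1.48 (SE 0.57) with no filter. It was the only Lys-CTT 5' fragment with a higher mean level in db/db. Summed, it had 17 counts in wild-type and 36 in db/db libraries, and no listed fragment had under 23. The 30-nt fragment was thus listed only through its db/db counts. The 29-nt form made up 74.4% to 92.4% of the 29-nt and 30-nt counts together in the 3 libraries and 20% to 50% in the others, where these shares rested on 5 to 19 counts. Since the 2 forms differ at position 29 (A29G), the 29-nt one is not a shortened 30-nt one. The part of the 3 libraries' make-up in these values was not tested.

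**Figure D5:**
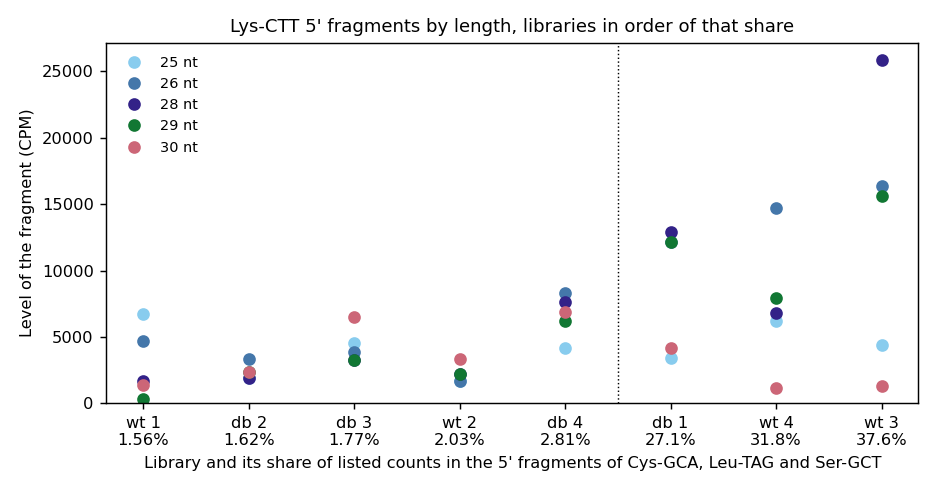
Points are the levels in CPM of the Lys-CTT 5' fragments by length, with the 8 libraries ordered by the percentage of listed counts in 5' fragments of Ser-GCT, Leu-TAG and Cys-GCA, and the dotted line sets off the 3 libraries that stand apart. The 26-nt and 29-nt points are higher in each of those 3 than in the other 5, whereas the 25-nt and 30-nt points are not.

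Within the 5' fragments, the balance between isoacceptors differed from library to library. Lys-CTT made up 86.3%, 55.6%, 94.7% and 92.9% of the lysine 5' counts across the wild-type libraries, against 86.8%, 50%, 50% and 42.5% across those of db/db. The share was lower in db/db replicates 2 to 4 than in any wild-type library. Db/db replicate 1, the third library that stands apart, lay among the wild-type ones.

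The 3' fragments of Lys-CTT stood lower in db/db, with wide overlap. The 17-nt fragment had 32, 2, 38 and 16 counts in the controls, compared with 26, 1, 5 and 1 in db/db. The 8-nt one had 33, 5, 17 and 18 across the wild-type libraries, against 6, 2, 3 and 6 across those of db/db. Both were low in wild-type replicate 2, and the 17-nt one was high in db/db replicate 1. Their sum was 17875 ± 10467 CPM for wild-type against 5194 ± 4525 CPM for db/db (SD, n = 4 per genotype), a log2 fold change of -1.75 (SE 0.72), or -1.45 without the 8-nt fragment. The 8-nt sequence cannot be assigned to lysine tRNA alone. Its 17 counts over the db/db libraries lie below the lowest listed total of 23, so it was listed only through its wild-type counts.

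All lysine fragments together held 13.5% ± 3.36 of the listed counts in wild-type and 10.4% ± 3.16 in db/db libraries (SD, n = 4 per genotype). The groups overlapped, from 10.95% to 18.5% and from 6.88% to 14.4%, and the difference of -3.13 percentage points was smaller than the spread within each genotype.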

How the data were processed

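Small RNA libraries of iMACs (4 wild-type, 4 db/db; miRNeasy micro and QIAseq miRNA kits) were grouped by the genotype in the labels. Per the methods, the authors collapsed identical reads longer than 16 nt by molecular identifier, aligned them to GRCm38.p6 and, with bowtie, to mature tRNA sequences, keeping perfect matches. One listed sequence of 8 nt is shorter than that limit. The deposited raw counts per fragment and tRNA name were used, with each sequence counted once. The deposited log2 values, made by the authors from the same counts, were not used.

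Fragments with a CCA end were taken as 3'. A fragment was 5' if it began at the mature 5' end, placed by the conserved A-box of the D-arm (1 base short allowed), and internal otherwise. Counts of all 144 fragments were fitted with edgeR 4.0.16 in R 4.3.3 (quasi-likelihood, TMM, filterByExpr with minimum count 10 and minimum total 15, genotype as the only term, Benjamini-Hochberg over all fragments tested), and likewise the 46 sums by tRNA and region. Fold changes give db/db relative to wild type. DESeq2 1.42.0 was an alternative, as were other scalings, filters and libraries left out. Shares of regions were compared within libraries by exact sign-flip permutation with scipy 1.17.1, at an adjusted p below 0.1. Of 6 such comparisons, 2 had 1 side fixed at 0 and are given without a test, and the adjustment over the other 4 was chosen after seeing the data. The edgeR steps were tested on simulated data with higher counts than the real ones, so their behavior at the low counts here was not tested.

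The lysine fragments, the lists and the tests were chosen with earlier results of these data known. Every lysine fragment with at least 20 counts was to be described, which held for all 23. For likeness, the 3 sums of other tRNAs with the highest Spearman correlation were named. Fragments of 1 tRNA entered every fit and are not reported by name. P-values measure the spread between libraries, each a pool of animals. The lowest chi-square per degree of freedom between 2 libraries was 1.46, so none was treated as a repeat. Perfect matching leaves out fragments misread at modified bases.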

Additional observations from a re-analysis of the deposited data

Results flagged for a closer look

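In 3 of 56 sets of 4 libraries checked, 1 library lay far from the rest of its genotype, about as many as chance gives (1 in 20). The 30-nt 5' fragment of Lys-CTT was at 3324 CPM in wild-type replicate 2, above the other wild-type libraries. The shared internal fragment 10 to 25 was at 19588 CPM in wild-type replicate 1, above the other wild-type libraries. The Lys-TTT internal fragment 5 to 24 was at 2071 CPM in db/db replicate 4, below the other db/db libraries.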

How the results depend on the processing

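Low counts limit every single-fragment value. No paired analysis was possible because the labels give the genotypes no shared replicate numbers. A block that splits libraries by number into 2 sets of 4, each with both genotypes, gave 0 lysine fragments and 0 lysine sums called, and 0 of all 44 fragments against 6. Against 0 lysine fragments called by edgeR, DESeq2 called 2, no filter gave 2, leaving out the 3 libraries that stand apart gave 4, and leaving out 1 library gave 0 to 3. Against 0 lysine sums, DESeq2 called 1, leaving out the Ser-GCT, Leu-TAG and Cys-GCA 5' fragments gave 1, leaving out the 3 libraries gave 3, and leaving out 1 library gave 0 to 4. The highest counts, 3 and 4, came without db/db replicate 1. Without wild-type replicates 2, 3 and 4 in turn, the calls over all fragments were 10 of 65, 2 of 62 and 3 of 60. Each set held 1 lysine fragment. Over all sums the calls were 4 of 35 without wild-type replicate 2 and 3 of 34 without db/db replicate 2. Leaving out the Ser-GCT, Leu-TAG and Cys-GCA 5' fragments gave 3 of 30 sums, and each of these settings called 1 lysine sum. Over 17 alternatives the log2 fold change of the Lys-TTT 5' sum ran from 1.48 to 2.63, that of the Lys-TTT internal sum from -1.22 to -0.47, that of the shared internal sum from -1.26 to -0.40 and, over 16, that of the Lys-CTT 3' sum from -2.55 to -1.12. The Lys-CTT 5' sum turned from -0.62 to 0.27 without the 3 libraries, and its share of listed counts (db/db minus wild type) from -0.36 to 0.28 points, with a range of -1.04 to 0.44 when 1 library was left out (0.44 without wild-type replicate 3, 0.10 without db/db replicate 2). The db/db minus wild-type difference in the lysine share of listed counts was -3.13 points, -6.41 without the 3 libraries, and -4.47 to -1.48 when 1 library was left out (-1.48 without wild-type replicate 1, -1.96 without db/db replicate 2). The median log2 fold change of all fragments tested was 0.06 with TMM, -0.11 with library totals alone and -0.04 with DESeq2 size factors, and over all sums -0.30, -0.08 and -0.08.

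Region shares kept their sign, except the 3' share of lysine against other tRNAs. Without the 3 libraries, Lys-TTT minus Lys-CTT was -39.5 points for 5', 65.2 for internal and -25.7 for 3' (exact permutation adjusted p = 0.25 for 5'), and lysine minus the others -6.69, 7.09 and -0.40 points. In wild-type libraries alone these 6 differences were -55.0, 89.5, -34.5, -12.8, 9.92 and 2.89 points, and in db/db libraries alone -42.7, 58.8, -16.1, -7.10, 8.15 and -1.04 points, where 4 libraries cannot go below p = 0.125 by exact permutation. The internal and 3' differences between isoacceptors set 1 side at 0 and carry no test. The 3' difference of lysine was also -2.63 points without the 8-nt fragment, and -0.0648 to 1.49 points when 1 library was left out (-0.0648 without wild-type replicate 4). With 1 library left out, the adjusted p of the 5' and internal differences of lysine against the others reached 0.0833 each (exact permutation). When only fragments with an exact 5' start counted as 5', these differences were -9.09 and 8.16 points (exact permutation adjusted p = 0.0625 and 0.0729).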
